A study of Mus musculus with 2 samples.

Results

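The group comprised 8 long noncoding RNAs (lncRNAs) known for work in the nucleus or on chromatin: Malat1, Neat1, Tug1, Pvt1, Fendrr, Lincpint, Dleu2 and 1810026B05Rik (RefSeq symbol Chaserr). They were taken by symbol from a deposited count table, in which each of the 8 had its own row among 3134 listed genes. The table sets RNA that was crosslinked to and precipitated with HP1 alpha against an input library, by eCLIP in NIH3T3. eCLIP uses ultraviolet light to fix a protein to the RNA it touches, and NIH3T3 is an established mouse fibroblast line. Both libraries came from crosslinked, RNase-treated cells of this line, with no drug treatment or genetic change named. For the HP1 alpha library an anti-HP1 alpha antibody was used, and RNA was taken from a gel region above the protein's band. The labels call the other library the input and give it no antibody. Each group had 1 library, so every interval below covers counting error alone, and no value could be set against a spread between replicates.

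HP1 alpha is a chromatin protein that reads methylated lysine on histone H3 and compacts heterochromatin, and its hinge region can contact RNA. Many lncRNAs stay in the nucleus, where they scaffold nuclear bodies (Malat1 in speckles, Neat1 in paraspeckles), take part in gene repression together with Polycomb complexes (reported for Tug1, Fendrr and Lincpint), or act on a neighbouring gene (Pvt1 beside Myc, Chaserr beside Chd2). Dleu2 is the host transcript of microRNAs of the miR-15/16 family.

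Sequences of microRNAs within Dleu2 and of the start regions of some members are given from RefSeq on build GRCm38.p6. The first are the mature microRNAs within the span of Dleu2, the member with a lower level in the HP1 alpha library that also makes small RNAs. They lie on the minus strand of chromosome 14, from 61631936 to 61631957 for miR-16-5p and from 61632075 to 61632096 for miR-15a-5p. Capitals mark the seed, bases 2 to 8.
mmu-miR-15a-5p: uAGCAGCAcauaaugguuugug
mmu-miR-16-5p: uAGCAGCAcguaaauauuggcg
Both share the seed AGCAGCA, which 11 of 1738 mature mouse microRNAs in the RefSeq table carry. The 3p arms, at 61632038 to 61632059 for miR-15a-3p and 61631894 to 61631915 for miR-16-1-3p, have seeds of their own, each found in 1 mature microRNA. The table counts reads per gene, so reads from these hairpins could not be separated from the rest of Dleu2.

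The second are the start regions of the most abundant member, Malat1, and of the pair with the lowest ratios, Dleu2 and 1810026B05Rik. Each window holds 250 bases before the annotated start in lower case and, in capitals, the first 50 transcribed bases, the 5′ end of the RNA itself. All 3 lie on the minus strand: Malat1 at chr19:5802623-5802922, Dleu2 at chr14:61682324-61682623 and 1810026B05Rik at chr7:73558346-73558645.
Malat1: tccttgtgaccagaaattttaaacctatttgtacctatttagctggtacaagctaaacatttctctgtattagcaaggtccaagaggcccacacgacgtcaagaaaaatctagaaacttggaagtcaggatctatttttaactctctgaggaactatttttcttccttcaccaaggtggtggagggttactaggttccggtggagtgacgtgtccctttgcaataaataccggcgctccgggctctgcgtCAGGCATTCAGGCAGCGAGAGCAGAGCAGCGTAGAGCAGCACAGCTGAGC
Dleu2: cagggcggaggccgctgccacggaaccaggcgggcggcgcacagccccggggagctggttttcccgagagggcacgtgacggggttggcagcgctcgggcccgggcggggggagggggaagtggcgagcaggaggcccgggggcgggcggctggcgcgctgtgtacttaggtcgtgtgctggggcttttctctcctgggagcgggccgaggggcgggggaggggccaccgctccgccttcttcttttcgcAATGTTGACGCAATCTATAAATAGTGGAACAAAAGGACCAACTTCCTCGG
1810026B05Rik: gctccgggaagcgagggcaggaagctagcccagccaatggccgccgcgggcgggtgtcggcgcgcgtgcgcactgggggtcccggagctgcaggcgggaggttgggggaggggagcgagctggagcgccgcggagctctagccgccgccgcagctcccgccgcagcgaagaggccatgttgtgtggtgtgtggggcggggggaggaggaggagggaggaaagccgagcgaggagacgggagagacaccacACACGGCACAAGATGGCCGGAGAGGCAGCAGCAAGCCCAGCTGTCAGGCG
The Malat1 window was poor in G and C for this group, with 47.0% GC and 10 CG dinucleotides. Dleu2 had 69.0% and 29, and 1810026B05Rik had 72.3% and 30, against a median of 52.7% GC over 32851 RefSeq windows of this length. A window was held for 6 of the 8 members, and the GC content of Lincpint, Fendrr and Tug1 was 58.7%, 64.7% and 71.3%. The GC box letters GGGCGG, searched on both strands, occurred 6 times in the Dleu2 window (1 neighbouring pair overlaps), 2 times in that of 1810026B05Rik and 1 time in that of Tug1. They were found 0 times in the windows of Malat1, Lincpint and Fendrr, and 35.7% of all windows hold them. The letters TATAAA, present in 13.6% of all windows, occurred 1 time in the 6 windows, in Dleu2, 15 bases past its annotated start and so within the transcribed part. These matches describe the letters of the windows and say nothing about binding.

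Listed counts totalled 513965 with HP1 alpha against 830031 without antibody, and a gene was listed when the larger of its 2 counts reached 100. All 8 members had at least 100 counts in the input, while 4 of them (Lincpint, Fendrr, Dleu2 and 1810026B05Rik) had fewer than 100 in the HP1 alpha library and were listed through the input alone. The fibroblast label fitted the table: 8 of 10 fibroblast markers were listed, led by Fn1, Col1a1 and Col1a2, with summed shares of 1.31% of the HP1 alpha library and 1.63% of the input, whereas 0 of 4 epithelial, 0 of 4 endothelial and 0 of 4 immune markers were among the genes analysed.

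The 8 lncRNAs spanned a wide range of levels. With HP1 alpha the counts ran from 39 for 1810026B05Rik to 3273 for Malat1, and in the input they ran from 102 for Lincpint to 4608 for Malat1. Malat1 was the most counted gene of the whole table in the input and the second in the HP1 alpha library. It alone made up 60.3% of the group's HP1 alpha counts and 67.0% of its input counts, so any sum over the group is largely a statement about Malat1. By count, Neat1 ranked 37 of all listed genes with HP1 alpha and 54 without antibody. Pvt1 ranked 31 and 197, the widest gap in rank toward the HP1 alpha library among the 3 abundant members.

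**Figure D1:**
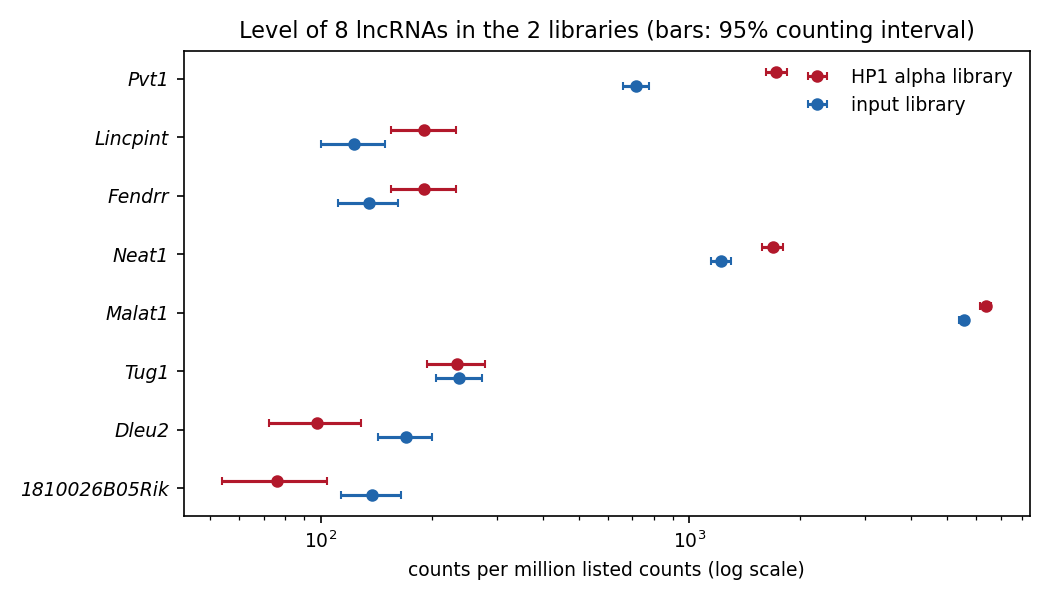
Level of each of the 8 lncRNAs in the HP1 alpha library (red) and the input (blue), in CPM on a log axis, 1 library each, with exact Poisson 95% intervals as bars. Malat1 lies far to the right in both libraries, the points of Pvt1 stand farthest apart, and those of Tug1 lie together.

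Because the members differ in length, levels between them were compared per kilobase of gene span, introns included, as CPM (counts per 1000000 listed counts) per kb. On this scale Malat1 had a level of 912 CPM per kb with HP1 alpha (881 to 944) against 795 in the input (772 to 818). Neat1 followed with 81.0 and 58.7, and Tug1 with 25.9 and 26.3. These 3 kept the leading places in both libraries, with intervals that did not overlap between them. They are also the shortest genes of the group apart from 1810026B05Rik.

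Among the lower places, Pvt1 and 1810026B05Rik changed places between the libraries, as did Lincpint and Dleu2. Pvt1 had a level of 7.75 CPM per kb with HP1 alpha (7.25 to 8.28), in place 4, against 3.23 in the input (2.98 to 3.50), in place 6. 1810026B05Rik went the other way, from place 4 in the input with 7.38 (6.09 to 8.87) to place 6 in the HP1 alpha library with 4.08 (2.90 to 5.58). Fendrr held place 5 in both, with 6.75 (5.48 to 8.23) and 4.78 (3.94 to 5.75). The intervals of Pvt1 and Fendrr overlapped in the HP1 alpha library, and those of Lincpint and Dleu2 did so there too, at 1.53 (1.24 to 1.86) and 1.22 (0.908 to 1.61). Those of Fendrr and 1810026B05Rik also overlapped there, so places 5 and 6 were not separated. In the input Dleu2 had 2.14 (1.80 to 2.52) and Lincpint 0.984 (0.802 to 1.19), which did not overlap. The sources used here do not say if introns were counted, so a long gene with short exons, such as Pvt1 or Lincpint, may look less dense than its RNA is.

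The comparison of the 2 libraries asks which of these RNAs were recovered with HP1 alpha beyond their level in the input. Counts were taken as shares of the listed totals, and the HP1 alpha share was set over the input share. A gene was called higher or lower when its ratio passed 2-fold and its 95% interval lay on that side of 1. Of the 8 members, 1 was called higher, Pvt1, and 0 were called lower, against 2.36% and 0.83% of all listed genes. A listed gene with fewer than 100 HP1 alpha counts can have a ratio of at most 1.60, so 4 of the 8 members, like 1433 of all 3134 genes, could not be called higher at the counts they had. With the interval alone, 5 lay above 1 (Pvt1, Lincpint, Fendrr, Neat1 and Malat1) and 2 below 1 (Dleu2 and 1810026B05Rik), where 15.4% of all listed genes lay above and 32.6% below. With TMM factors, another scaling, Pvt1 remained the 1 member called, among 4.05% of all listed genes called higher and 0.287% called lower. The group's median log2 ratio was 0.33 and that of all listed genes was -0.21.

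Among the scaffold RNAs of nuclear bodies, Malat1, which gathers at nuclear speckles with splicing factors, had 3273 counts with HP1 alpha against 4608 in the input. That is 6368 and 5552 CPM of the listed totals, and its ratio was 1.15 (1.10 to 1.20). At the share it took of the input, 2853 counts would have been found in the HP1 alpha library, 420 fewer than were. Malat1 (ENSMUSG00000092341.2) spans 6.98 kb of chromosome 19, from 5795690 to 5802672, and holds the annotated small RNA Mascrna, which is cut from its 3′ end. The interval above 1 rests on its high count, since the difference itself was small.

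Neat1, the RNA core of paraspeckles, had 865 counts with HP1 alpha against 1012 in the input, or 1683 and 1219 CPM. Its ratio was 1.38 (1.26 to 1.51), higher than that of 89.3% of the other listed genes. Neat1 (ENSMUSG00000092274.2) lies on chromosome 19 from 5824708 to 5845480, and 22.0 kb separate it from Malat1. The ratio of Neat1 was 1.20 times that of Malat1 (1.09 to 1.33), a difference beyond counting error on this scale. When each was set against genes of like span, as described below, the ratio of Neat1 was 1.11 times as large (0.999 to 1.23), which includes 1.

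Pvt1, the long transcript next to Myc that is amplified with it in tumours, stood farthest from the input. It had 885 counts with HP1 alpha against 596 in the input, or 1722 and 718 CPM, and the library with the smaller total thus held the larger raw count. The ratio was 2.40 (2.16 to 2.67), above that of 99.2% of the other listed genes. An equal share would have given 369 counts in the HP1 alpha library. Pvt1 (ENSMUSG00000097039.4) covers 222 kb of chromosome 15, from 62037986 to 62260215, and overlaps the annotated pseudogene Macroh2a3 over 1911 bases.

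Of the RNAs reported to work with Polycomb complexes, Lincpint, a transcript induced by p53, had 98 counts with HP1 alpha against 102 in the input, or 191 and 123 CPM. Its ratio was 1.55 (1.16 to 2.07). Fendrr, which is needed for development of the heart and body wall, had 98 and 112 counts, or 191 and 135 CPM, and a ratio of 1.41 (1.07 to 1.87). At these low counts both intervals were wide and came close to 1.

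Tug1, an RNA first described in the developing retina and found in nucleus and cytoplasm, had 120 counts with HP1 alpha against 197 in the input. At 233 and 237 CPM its share was nearly the same in both, with a ratio of 0.984 (0.777 to 1.24). A difference inside that interval was not detectable at this depth. Lincpint (ENSMUSG00000044471.7) spans chromosome 6 from 31093563 to 31218474, Fendrr (ENSMUSG00000097336.4) chromosome 8 from 121054882 to 121083110, and Tug1 (ENSMUSG00000056579.13) chromosome 11 from 3639785 to 3648814.

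The remaining pair took a smaller share of the HP1 alpha library than of the input. Dleu2 had 50 counts with HP1 alpha against 141 in the input, or 97.3 and 170 CPM, and a ratio of 0.573 (0.406 to 0.796). 1810026B05Rik, the RNA Chaserr that limits expression of the remodeller gene Chd2, had 39 and 114 counts, or 75.9 and 137 CPM, and a ratio of 0.552 (0.374 to 0.801). The listing limit fixed both directions: a gene listed with 50 counts in the HP1 alpha library could have a ratio of at most 0.807, and one with 39 counts at most 0.630. Their ratios are therefore descriptions of listed genes with few HP1 alpha counts, and the intervals below 1 carry no weight of their own. Dleu2 (ENSMUSG00000097589.5) lies on chromosome 14 from 61602836 to 61682373, and 1810026B05Rik (ENSMUSG00000098496.2) on chromosome 7 from 73539798 to 73558395.

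**Figure D2:**
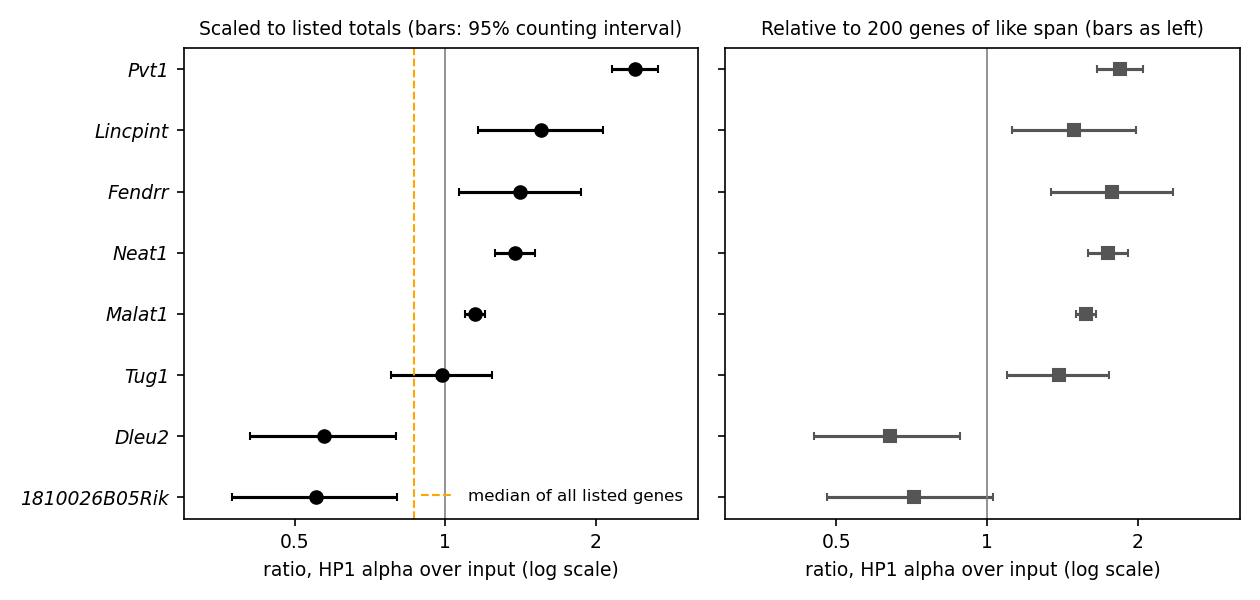
Ratio of HP1 alpha over input for each of the 8 lncRNAs on a log2-spaced axis, with 95% counting intervals as bars. On the left, ratios are scaled to the listed totals, and the dashed line marks the median ratio of all listed genes, 0.865. On the right, each ratio is divided by the median of the 200 listed genes nearest in span. There Tug1 moves to 1.39 and Pvt1 to 1.84.

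A ratio between 2 members does not depend on how the libraries are scaled, so members were also set against each other. For each of the 28 pairs, the ratio of their ratios was taken with an exact conditional 95% interval. In 21 pairs this interval excluded 1, and in 15 it still did when widened to a level of 99.8% to cover all 28. Leaving out Dleu2 and 1810026B05Rik, whose low ratios the listing limit fixed, 9 of the 15 pairs among the other 6 members had such an interval, and 5 in the widened form. Lincpint and Fendrr, with 98 HP1 alpha counts each, could have ratios of at most 1.58, so the limit also fixed their place below Pvt1. The 9 include both of these pairs, and the 5 include Pvt1 over Fendrr. A comparison relative to genes of like span was added after the data were seen. In it, only Pvt1 over Malat1 (1.04 to 1.31) and over Tug1 (1.03 to 1.72) kept an interval above 1 among the 15. The pairs share members and are not independent.

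In the order of ratios, 3 of the 7 steps between neighbours were larger than counting error, or 2 of the 5 steps among the members other than Dleu2 and 1810026B05Rik. Pvt1 stood 1.55 times above the next member, Lincpint (1.14 to 2.10), although this interval included 1 when widened for all pairs (0.953 to 2.51). At its 98 HP1 alpha counts a listed gene could have a ratio of at most 1.58, so a step from Pvt1 to Lincpint was in part set by the listing limit. Lincpint, Fendrr and Neat1 could not be put in order, with steps of 1.10 (0.731 to 1.65) and 1.02 (0.761 to 1.38). Neat1 and Malat1 differed, as given above, and this step held in the widened interval (1.02 to 1.42). Relative to genes of like span the step did not hold, at 1.11 (0.999 to 1.23). Malat1 and Tug1 did not differ beyond counting error, at 1.17 (0.920 to 1.48). Tug1 stood 1.72 times above Dleu2 (1.14 to 2.61), a step whose widened interval included 1 and whose direction the listing limit helped to fix. Dleu2 and 1810026B05Rik could not be separated, at 1.04 (0.620 to 1.74).

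Pvt1 and the nuclear body RNAs could be compared at high counts in both libraries. The ratio of Pvt1 was 2.09 times that of Malat1 (1.86 to 2.35) and 1.74 times that of Neat1 (1.51 to 2.0). Both intervals stayed above 1 when widened for 28 pairs. These gaps moved with gene span: relative to genes of like span, a comparison added after the data were seen, Pvt1 stood 1.17 times above Malat1 (1.04 to 1.31) and 1.06 times above Neat1 (0.919 to 1.22).

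**Figure D3:**
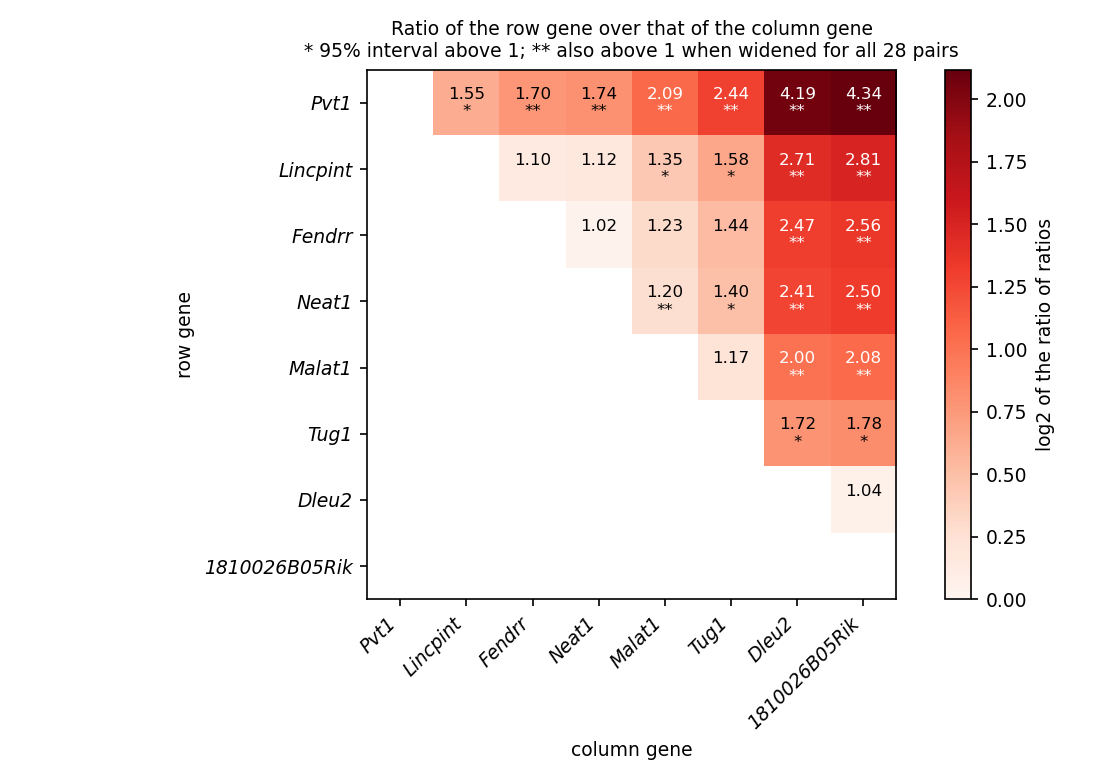
Ratio of the row gene's HP1 alpha over input ratio to that of the column gene, for the 28 pairs of 8 lncRNAs ordered by ratio, with colour giving its log2. Stars mark the 21 pairs with a 95% interval above 1, and a double star the 15 of them whose interval stayed above 1 after widening for all pairs. The cells without a star include the 3 pairs among Lincpint, Fendrr and Neat1.

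As a whole, the group held 5428 counts with HP1 alpha against 6882 in the input, or 1.06% (1.03 to 1.08, exact binomial) and 0.829% (0.810 to 0.849) of the listed totals. The ratio of these shares was 1.27 (1.23 to 1.32). The HP1 alpha library held 1167 counts more than equal shares would have given, and Pvt1 made up 44.2% of this net excess, Malat1 36.0% and Neat1 20.4%, while the other members nearly cancelled out. Without Pvt1 the share ratio was 1.17 (1.12 to 1.21), and without Malat1 it was 1.53 (1.44 to 1.62). With both left out, the other 6 had a share ratio of 1.22 (1.14 to 1.32). Neat1 held 865 of their 1270 HP1 alpha counts and 1012 of their 1678 input counts, so this ratio is largely that of Neat1. The 22 other genes that RefSeq classes as lncRNA had a share ratio of 1.26 (1.20 to 1.31) and a median log2 ratio of -0.15, and 8 of the 22 had ratios above 1, against 5 of the 8 members and 30.9% of all listed genes. The share ratio of the members was thus close to that of the other lncRNAs, with overlapping intervals. Both are sums that a few genes weigh on. Among the 22, Airn alone held 824 of 3613 HP1 alpha counts and 424 of 4638 input counts. Close sums therefore do not show that the single genes are alike.

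Gene span moves with the ratio across this table, and the members span from 6.98 kb (Malat1) to 222 kb (Pvt1), around a median of 48.2 kb for all listed genes. Each member was therefore also set against the 200 listed genes nearest to it in span. Pvt1 then had a ratio of 1.84 (1.66 to 2.05), since long genes of its size had a median ratio of 1.30, and it was no longer called higher at 2-fold. On this footing 0 of the 8 were called higher and 0 lower, as were 1.23% and 0.129% of the genes with a known span. The short members moved up. Malat1 had 1.58 (1.51 to 1.65), Neat1 1.74 (1.59 to 1.91), and Tug1 1.39 (1.10 to 1.75), since genes of their sizes had medians of 0.728, 0.791 and 0.708. Fendrr had 1.78 (1.34 to 2.35) and Lincpint 1.49 (1.12 to 1.99).

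Relative to genes of like span, 6 of the 8 members had intervals above 1, where 15.4% of the 3089 genes with a known span did. The ratios of these 6 ran from 1.39 to 1.84, with intervals reaching from 1.10 to 2.35. The listing limit capped how high those of Lincpint and Fendrr could be. Dleu2 stayed below 1 at 0.640 (0.451 to 0.884), and 1810026B05Rik had 0.713 (0.479 to 1.03). The listing limit fixed both below 1 on this scale too. Their highest possible ratios, 0.807 and 0.630, lie under the medians of genes of their spans, 0.900 and 0.781. An interval below 1 was found for 11.8% of the genes with a known span. The intervals here cover the counts of the member and not the choice of reference genes.

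**Figure D4:**
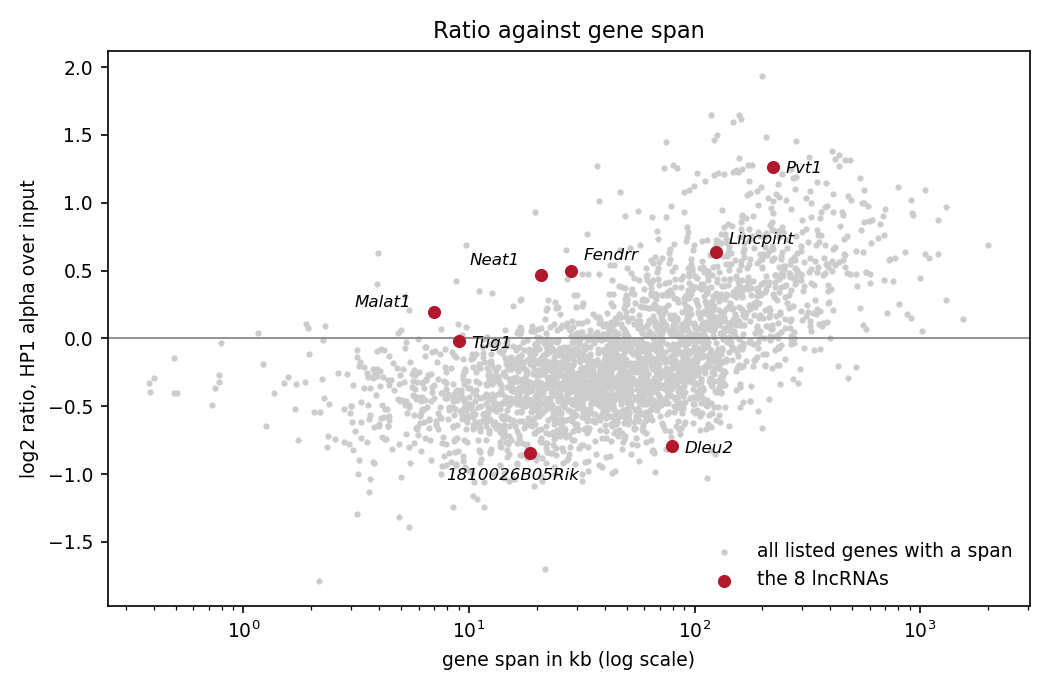
Log2 ratio of HP1 alpha over input against gene span in kb (log axis) for all listed genes with a known span (grey) and the 8 lncRNAs (red). Malat1, Neat1 and Fendrr lie above the median of genes of their span, Pvt1 lies among long genes that are mostly above 0, and Dleu2 and 1810026B05Rik lie below the median of theirs.

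The genomic surroundings of the members were compared through the nearest listed gene on either side and any listed gene that overlapped them. These ratios were not adjusted for gene span unless stated. Around Neat1 and Malat1, Frmd8, 5.49 kb beyond Neat1, had 98 counts with HP1 alpha against 136 in the input and a ratio of 1.16 (0.888 to 1.52), and the ratio of Neat1 was 1.19 times as large (0.893 to 1.58). On the other side of Malat1, at 107 kb, Pcnxl3 had 128 against 300 counts, a ratio of 0.689 (0.556 to 0.850). Malat1 stood 1.66 times above it (1.34 to 2.07). The locus thus held ratios from 0.689 to 1.38 within listed genes of 1 short stretch of chromosome 19.

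Tug1 and Morc2a, the gene of an ATPase that compacts chromatin, are separated by 374 bases, and their ratios of 0.984 and 0.872 (0.678 to 1.11) did not differ beyond counting error, at 1.13 (0.800 to 1.59). Smtn, 100 kb away on the other side of Tug1, had 0.891 (0.655 to 1.21). The ratio of Tug1 was 1.10 times as large (0.749 to 1.63). 1810026B05Rik shares 1949 bases with Chd2, the gene it acts on. Chd2 had 283 against 477 counts, a ratio of 0.958 (0.824 to 1.11), and the ratio of 1810026B05Rik was 0.577 times that, a direction fixed by the limit of 0.630 given above. Reads in the shared bases cannot be assigned where strand was not used, and strand handling is not given in the sources used here. Farther from 1810026B05Rik, Nr2f2 at 3173 kb had a ratio of 0.987 (0.758 to 1.28). On the other side, Slco3a1 at 717 kb had 2.14 (1.72 to 2.67) and was called higher. Slco3a1 spans 279 kb, and relative to genes of like span its log2 ratio was 0.64, under the 2-fold limit. The listing limit fixed 1810026B05Rik below both Nr2f2 and Slco3a1.

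Lincpint lies 180 kb from Mkln1, a gene of a ubiquitin ligase subunit, which had a ratio of 1.13 (0.938 to 1.37). The ratio of Lincpint was 1.37 times as large (0.969 to 1.94), which includes 1. On the other side, at 584 kb, Tmem209 had 0.834 (0.604 to 1.14), and Lincpint stood 1.86 times above it (1.21 to 2.87). With 62 counts against 120, Tmem209 was listed through the input alone, so the listing limit helped to fix this direction. Dleu2 shares 7452 bases with Trim13 and 5377 bases with Kcnrg in the annotation, neither of which is analysed here. On its higher-coordinate side the next listed gene, Xkr6, lies 1924 kb away and had a ratio of 1.37 (1.02 to 1.83), and the ratio of Dleu2 was 0.418 times as large, again a direction that its listing limit fixed. For Pvt1 the nearest listed gene was Asap1, 1827 kb away, with a ratio of 1.35 (1.25 to 1.45), and Pvt1 stood 1.78 times above it (1.56 to 2.03). On its other side, Sqle had 0.821 (0.656 to 1.02) at 2707 kb, and Pvt1 stood 2.92 times above it (2.28 to 3.75). Around Fendrr the listed genes differed: Cox4i1, a respiratory chain gene 381 kb away, had a ratio of 0.838 (0.647 to 1.08), and Fendrr stood 1.69 times above it (1.15 to 2.47). Zcchc14, at 516 kb on the other side, had 1.36 (1.15 to 1.61), and the ratio of Fendrr was 1.04 times as large (0.747 to 1.44). Relative to genes of like span, log2 ratios were 0.88 for Pvt1, -0.039 for Asap1 and 0.10 for Sqle. They were 0.060 for Xkr6, 0.16 for Mkln1, 0.069 for Tmem209, 0.20 for Cox4i1 and 0.69 for Zcchc14.

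**Figure D5:**
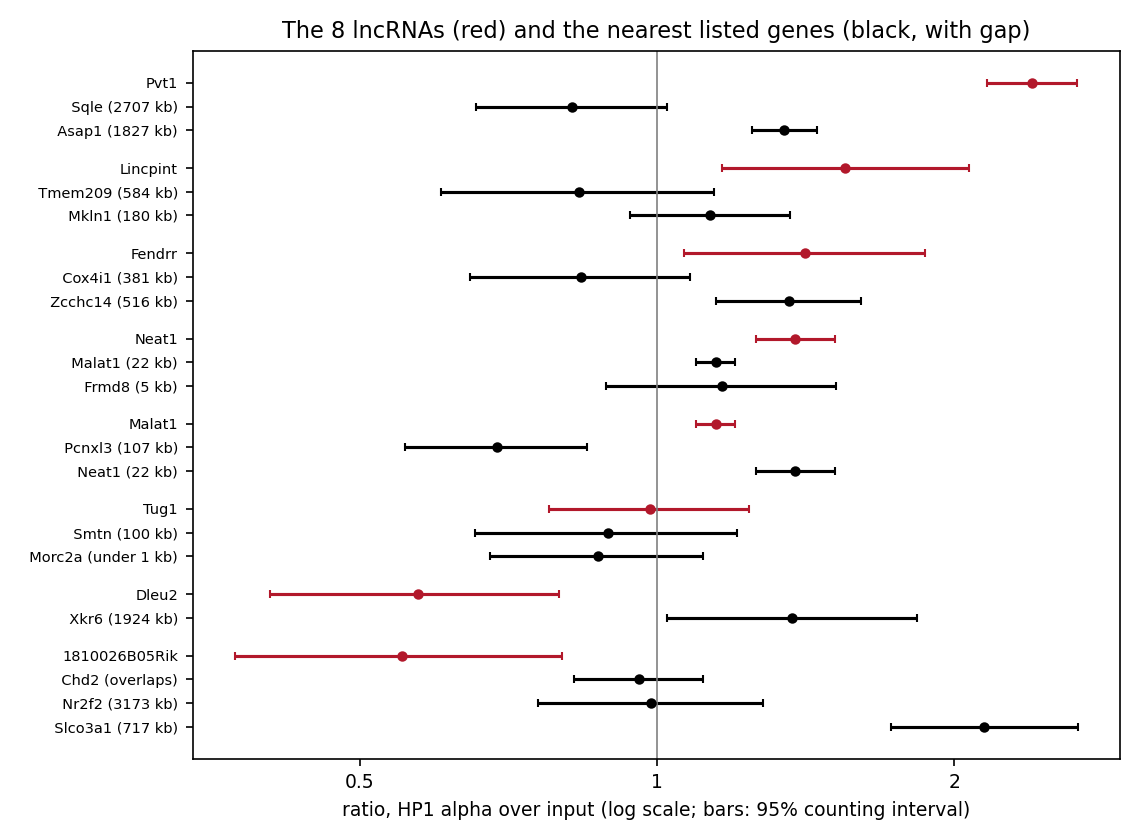
Ratio of HP1 alpha over input (log2-spaced axis, 95% counting intervals) for each of the 8 lncRNAs in red and, under it, the nearest listed genes on its chromosome in black with the gap in kb (for Dleu2, on 1 side). Pvt1 and Malat1 lie above the gene on the lower side of them, Tug1 lies with its neighbours, and Dleu2 and 1810026B05Rik lie below theirs, a side that the listing limit fixed for them.

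The mRNAs of proteins that work with these lncRNAs mostly had ratios below 1, as did most listed genes. Of 20 genes for paraspeckle proteins, the partners of Neat1, 15 were measured. Their median log2 ratio was -0.43, 1 interval lay above 1 and 10 lay below, beside the 15.4% and 32.6% of all listed genes given above. Arid1b, a remodeller subunit, had 620 counts with HP1 alpha against 696 in the input and a ratio of 1.44 (1.29 to 1.61). Arid1b is a long gene, and its log2 ratio relative to genes of like span was 0.039. Smarca4, its partner ATPase, had 1.08 (0.935 to 1.24), and Matr3, a nuclear matrix RNA-binding protein, had 0.742 (0.614 to 0.892).

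Of 24 genes for proteins of nuclear speckles, where Malat1 gathers, 16 were measured, with a median log2 ratio of -0.34, 0 intervals above 1 and 10 below. The speckle core proteins Srrm2 and Son had ratios of 0.791 (0.718 to 0.871) and 0.790 (0.690 to 0.902), and the splicing factor gene Sf3b1 had 0.825 (0.689 to 0.985). Of the 16, 1 was called lower, Srsf5, with 32 and 106 counts and a ratio of 0.488 (0.318 to 0.730), a gene that the listing limit also places below 1. Of 12 genes of the Polycomb complex PRC2, named for Tug1, Fendrr and Lincpint, 7 were measured, with a median of -0.32, 0 intervals above 1 and 3 below. Rbbp4 had a ratio of 0.658 (0.545 to 0.793), Suz12 0.691 (0.558 to 0.853) and Ezh2 0.793 (0.642 to 0.976).

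Of 15 genes of the p53 pathway, which induces Lincpint, 5 were measured, with a median log2 ratio of -0.32, 0 intervals above 1 and 1 below. Trp53 itself had 0.927 (0.737 to 1.16), Mdm4 1.09 (0.855 to 1.38) and Mdm2 0.777 (0.583 to 1.03). These medians lie below the -0.21 of all listed genes. Relative to genes of like span, however, they were -0.061 for paraspeckle, -0.011 for speckle, -0.16 for PRC2 and 0.041 for p53 genes, against 0.62 for the 8 lncRNAs and 0.17 for the 22 other RefSeq lncRNAs. Of 32 other lncRNAs set beside the group, 11 were measured, with 6 intervals above 1 and 5 below. Their median log2 ratio, 0.33, was the value of Gm20388 itself. Relative to genes of like span, where Gm20388 has no value, the median was 0.39. It fell in a gap between -0.31 (Snhg3) and 1.09 (Gas5), so neither median is a typical value of these genes. The most abundant were Gm20388, whose class is unknown here, with 1.26 (1.20 to 1.32), Airn with 3.14 (2.79 to 3.54) and 2610035D17Rik with 3.14 (2.6 to 3.79).

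The genes closest to a member in level in both libraries were found by the distance between their log2 CPM values. Nearest to Pvt1 were Smyd3, a methyltransferase gene, with 877 and 664 counts, and Ror2, a Wnt receptor gene, with 775 and 596. Both are protein-coding and long, at 566 and 177 kb, with ratios of 2.13 (1.93 to 2.36) and 2.10 (1.88 to 2.34). Nearest to Malat1 was Rnf213, with 3507 and 4371 counts and a span of 97.5 kb, and then Gm20388, with 2838 and 3646. Their ratios were 1.30 (1.24 to 1.35) and 1.26 (1.20 to 1.32). The interval of Rnf213 lay above that of Malat1, at 1.15 (1.10 to 1.20). Nearest to 1810026B05Rik was Rab43, with the same counts of 39 and 114, and then Mcoln1, with 40 and 115. With 2 libraries, such likeness amounts to a near level in both, and ratios can still differ beyond counting error, as for Malat1 and Rnf213.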

How the data were processed

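RNA bound to HP1 alpha was measured in 1 library and an input in 1 library of NIH3T3 cells. The authors deposited 1 table of whole-number read counts per gene with a ratio (fold change) column. Reads were aligned to GRCm38 with STAR 2.6.0c and counted with featureCounts, going by the tools in the submitters' processing notes. Settings, strand and duplicate removal are not stated there. The deposited ratio equals 1.66 times the raw count ratio throughout, normalized to total mapped reads per the file headers. The columns are headed MEF, and mock was taken as the input, the remaining labelled sample. There were 0 other sample columns.

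Counts were scaled to listed totals (513965 and 830031), since depth is not given, with exact 95% Clopper-Pearson intervals for ratios, exact Poisson intervals for levels, and a pseudocount of 0.5 for log2 ratios. Reads may include PCR copies, so intervals cover counting error only, and they compare these 2 libraries. Calls used the whole table. The procedure was tested on simulated counts with Poisson error alone, without PCR copies or the listing limit, so that test covers counting error only. Positions came from RefSeq (6 members matched by symbol, 2 by synonym). Alternatives were TMM factors (edgeR 4.0.16), DESeq2 1.42.0 size factors, the authors' constant, a reference of 200 genes of like span, a pseudocount of 5, a minimum of 400 counts and other thresholds. Python 3.11.15 and scipy 1.17.1 were used. The members and lists were chosen with earlier results of these data known. Genes named were the 8 members, the nearest listed genes beside or overlapping them (those that inform the comparison, with 1 gene beside Dleu2 not reported here), up to 3 genes per list by mean level, and the 2 nearest in level to the highest, lowest and most abundant member; Srsf5 was named after its value was seen.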

Additional observations from a re-analysis of the deposited data

How the results depend on the processing

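No paired analysis was possible because both groups consist of 1 library, so leaving one out was impossible too. TMM factors added 0.20 and DESeq2 size factors 0.21 to every log2 ratio, all genes included, and the authors' constant added 0.041. The sign of the log2 ratio of Tug1 (-0.021) turned under these 3 scalings and within its counting interval, and that of the other 7 members did not turn under any alternative. For Dleu2 and 1810026B05Rik it could not turn, since the listing limit held their ratios to at most 0.807 and 0.630. Values that moved beyond counting error were, in log2, Pvt1 from 1.26 to 1.46 (TMM), 1.47 (DESeq2) and 0.88 (like span), Neat1 from 0.47 to 0.66, 0.67 and 0.80, Malat1 from 0.20 to 0.40, 0.41 and 0.66, and Tug1 to 0.48 with like span. The group median of 0.33 became 0.53, 0.54 and 0.62 in that order, 0.47 at a minimum of 400 counts (3 members left) and 0.20 without Pvt1, the last chosen after seeing the data. The share ratio of 1.27 became 1.46, 1.47 and 1.60 in that order, 1.53 without Malat1 and 1.17 without Pvt1. With like span, likewise added after the data were seen, the ratio of Pvt1 over that of Malat1 went from 2.09 to 1.17 and over that of Neat1 from 1.74 to 1.06. The 1 member called higher became 0 with like span, 2 at 1.5-fold and 5 by interval alone, and the 0 called lower became 2 at 1.5-fold and 2 by interval alone. Those called lower were Dleu2 and 1810026B05Rik, whose directions the listing limit fixed. Members near 100 counts have intervals too wide to order Lincpint, Fendrr and Neat1.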
